A study of Mus musculus with 6 samples.

Results

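Glucagon (Gcg), somatostatin (Sst), pancreatic polypeptide (Ppy), peptide YY (Pyy) and ghrelin (Ghrl) are the peptide hormones of the islet cells that do not make insulin, and their transcripts were followed in mouse islets exposed to cisplatin. All probe rows whose symbol is one of these 5 genes were taken, which gave 6 rows among 30146 in the deposited count table. Gcg, Sst, Ppy and Pyy had 1 row each and Ghrl had 2. The islets came from 3 male wild-type C57Bl/6 mice whose ages the labels do not give. One portion of each mouse's islets was cultured with 10 uM cisplatin, a platinum drug that crosslinks DNA, and the other portion with vehicle, 0.9% saline, both for 48 h in the same serum-containing medium. Each treatment therefore has 3 libraries, and the libraries of mouse 1, 2 and 3 form pairs. RNA was read with TempO-Seq, in which a pair of short detector probes is ligated on each target transcript and the ligated probes are counted.

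Islet endocrine cells are divided by the hormone they secrete: alpha cells make glucagon, delta cells somatostatin, PP cells pancreatic polypeptide, and the rare epsilon cells ghrelin, while beta cells make insulin. Glucagon raises blood glucose by acting on the liver, and somatostatin holds back the secretion of both glucagon and insulin from neighbouring cells. Each hormone is cut from a larger precursor inside secretory granules by prohormone convertases, and pancreatic polypeptide and peptide YY are then amidated at their C-terminus. In a bulk culture, fewer cells of a type and less RNA per cell cannot be told apart.

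The libraries held 1116916 to 1366829 counts with cisplatin and 1470227 to 2272276 counts with vehicle. After the filter on low counts, 9381 rows were tested with edgeR's quasi-likelihood test. At an adjusted p under 0.05, 1040 rows were higher and 1304 lower with cisplatin, and with library totals alone in place of TMM (trimmed mean of M-values) factors the split was 459 higher and 2023 lower. Cisplatin library 3 stood apart in that the mitochondrially encoded rows took 28.6% of its counts, against 2.83% and 3.11% in the other cisplatin libraries and 0.188% to 1.74% in the vehicle libraries, and mt-Nd6 alone took 28.4%. The member rows gave the same calls without the mt-Nd6 rows.

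The genes lie at 4 places in the mouse genome, all on the minus strand (GRCm38, GENCODE M21). Gcg spans chr2:62474530-62483650, Sst chr16:23889573-23890958 and Ghrl chr6:113716119-113719880. Ppy, at chr11:102099930-102101319, and Pyy, at chr11:102106676-102107832, are neighbours with 5356 bases between them, and both encode members of the neuropeptide Y family. A pair of annotated genes on the opposite strand, Gm26982 and Gm44033, overlap Ghrl. Between the annotated transcripts of any pair of the 5 genes the longest identical stretch was 9 to 11 bases. The probe sequences themselves were not used here, so the position of each probe within its gene is not given.

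The 250 bases before each gene's start, from RefSeq on GRCm38.p6, are shown because the results below set genes of different islet cell types side by side. They are written from the 5' to the 3' end, ending at the base before the start, with matched motifs in capitals. For Pyy and Ghrl, which have several starts, the one farthest upstream was taken.
Gcg, chr2:62483654-62483903, minus strand: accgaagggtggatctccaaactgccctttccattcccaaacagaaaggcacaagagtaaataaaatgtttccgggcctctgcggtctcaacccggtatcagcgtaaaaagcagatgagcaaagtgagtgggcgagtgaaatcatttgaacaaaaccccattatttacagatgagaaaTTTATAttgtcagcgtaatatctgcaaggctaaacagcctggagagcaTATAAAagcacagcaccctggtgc
Sst, chr16:23890845-23891094, minus strand: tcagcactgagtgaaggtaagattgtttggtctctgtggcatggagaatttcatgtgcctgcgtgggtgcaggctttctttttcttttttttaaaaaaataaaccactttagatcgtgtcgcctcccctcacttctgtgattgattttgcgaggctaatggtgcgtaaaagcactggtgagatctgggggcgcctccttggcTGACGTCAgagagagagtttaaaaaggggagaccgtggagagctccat
Ppy, chr11:102101320-102101569, minus strand: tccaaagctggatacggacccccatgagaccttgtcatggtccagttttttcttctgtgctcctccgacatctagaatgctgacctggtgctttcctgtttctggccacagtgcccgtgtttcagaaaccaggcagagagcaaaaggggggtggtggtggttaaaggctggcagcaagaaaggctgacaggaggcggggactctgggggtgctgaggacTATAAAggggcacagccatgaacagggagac
Pyy, chr11:102107833-102108082, minus strand: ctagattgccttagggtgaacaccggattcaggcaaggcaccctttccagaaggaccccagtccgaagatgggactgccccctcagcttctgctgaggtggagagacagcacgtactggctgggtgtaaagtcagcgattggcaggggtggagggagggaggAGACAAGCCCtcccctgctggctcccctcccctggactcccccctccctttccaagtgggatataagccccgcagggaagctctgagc
Ghrl, chr6:113719912-113720161, minus strand: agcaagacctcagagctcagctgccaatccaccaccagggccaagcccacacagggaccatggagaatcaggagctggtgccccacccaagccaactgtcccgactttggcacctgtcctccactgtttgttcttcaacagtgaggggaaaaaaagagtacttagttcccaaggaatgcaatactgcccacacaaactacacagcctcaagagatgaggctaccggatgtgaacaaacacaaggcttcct

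Both strands were searched for 3 motifs. The letters TATAAA mark the box that places the transcription start of many hormone genes. The letters TGACGTCA form the cAMP response element, which is well known from the somatostatin gene. The p53 half-site was searched for by name, since p53 is a transcription factor that DNA damage activates. Gcg held TATAAA 24 bases before its start and again, on the other strand, 72 bases before it. Ppy held TATAAA 31 bases before its start. Sst held the cAMP response element 48 bases before its RefSeq start, and the GENCODE annotation starts Sst inside this window. Pyy held 1 p53 half-site 88 bases before its start, and the Ghrl window held none of the 3 motifs. Among 27025 promoter windows of the same kind, 13.0% held TATAAA, 1.6% TGACGTCA and 7.16% the p53 half-site. No binding was measured here, so these matches are letters in a window and not sites in use.

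Of the 5 hormone genes, Gcg and Pyy fell with cisplatin in the test with treatment as its only term, and Sst and Ppy did not pass. With the mouse as a block Ppy passed too. The calls of Gcg and Pyy were both lost without mouse 2 or mouse 3. Each was also lost without cisplatin library 2, cisplatin library 3 or vehicle library 2 alone. Gcg lost its call without mouse 1 as well. Ghrl was higher with cisplatin in mouse 1 and mouse 3 but not in mouse 2, and since its row entered the test only through the cisplatin libraries, its values are given as a description. Of 9381 rows tested, 25.0% were called in either direction, 13.9% lower and 11.1% higher, against 2 lower among the 5 member rows tested and 1 higher, the Ghrl row, which supports nothing for the reason just given. Counts this small do not set the hormones apart from the other rows. Among the 302 rows whose mean level was at least that of Pyy, 13.2% were called lower and the median log2 fold change was 0.68, while over all rows tested the median was -0.07. Levels are given as CPM, counts scaled to a common depth with TMM factors, and every log2 fold change is cisplatin over vehicle with its standard error.

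**Figure D1:**
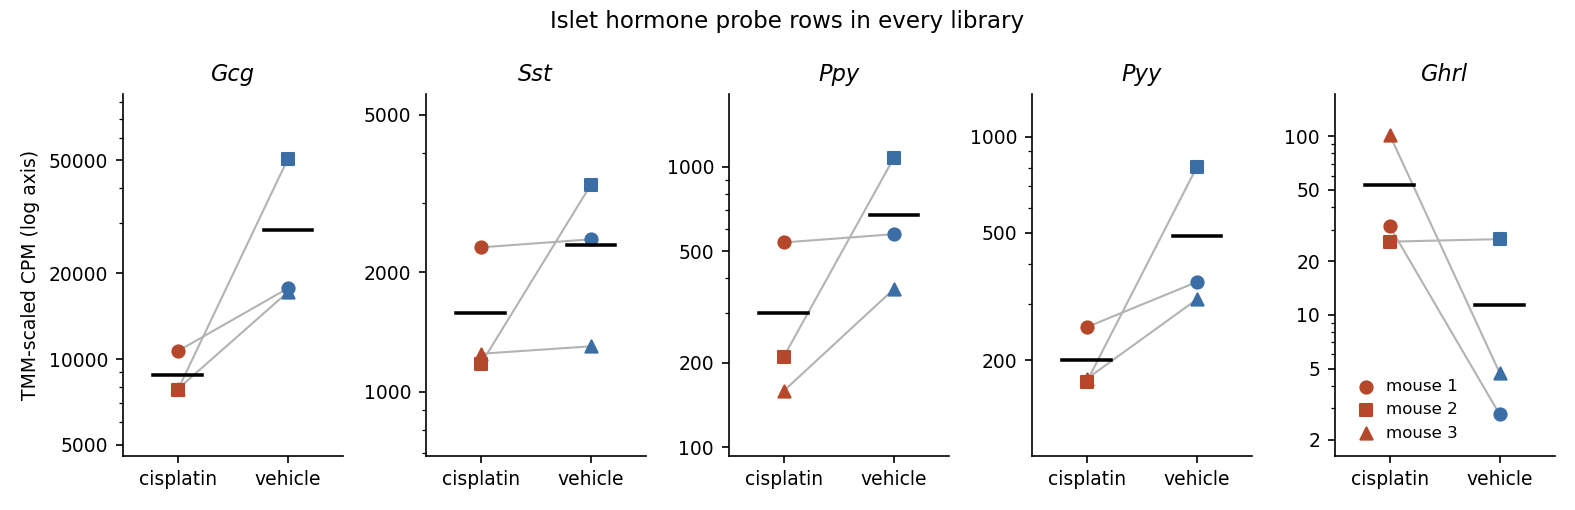
TMM-scaled CPM (log axis) of the tested probe row of Gcg, Sst, Ppy, Pyy and Ghrl in each library, cisplatin left of vehicle; symbols stand for the 3 mice, lines join the libraries of one mouse and bars are group means. The vehicle library of mouse 2 (square) is the highest of all 6 for Gcg (50464 CPM), Sst (3325 CPM), Ppy (1073 CPM) and Pyy (802 CPM).

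Gcg, the alpha cell hormone gene, read 10663, 7781 and 7841 CPM in the cisplatin libraries of mouse 1, 2 and 3, against 17725, 50464 and 17193 CPM in their vehicle libraries. The groups did not overlap, as for 43.4% of all rows tested (24.3% with cisplatin lower, 19.1% with cisplatin higher), and the vehicle library of mouse 2 lay far above the other vehicle libraries while its cisplatin library did not. Gcg averaged 8762 ± 1647 CPM with cisplatin and 28461 ± 19057 CPM with vehicle (SD, n = 3 each), a 3.25-fold fall (log2 fold change -1.70 ± 0.49, 95% interval -2.75 to -0.65, edgeR adjusted p = 0.0214). Within mice it was 1.66-fold lower in mouse 1, 6.49-fold in mouse 2 and 2.19-fold in mouse 3. Without both libraries of mouse 2 the log2 fold change was -0.92 and the call was lost (edgeR adjusted p = 0.163). It was also lost without vehicle library 2 alone (-1.01, edgeR adjusted p = 0.0913). The same held without cisplatin library 2 or cisplatin library 3 (edgeR adjusted p = 0.0627 and 0.0632), and without mouse 1 or mouse 3.

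Pyy, which encodes the gut and islet peptide YY and is expressed in several islet endocrine cell types, read 254, 171 and 175 CPM with cisplatin, against 351, 802 and 310 CPM with vehicle. Again the groups did not overlap and the vehicle library of mouse 2 was the high one. Pyy averaged 200 ± 46.7 CPM with cisplatin and 488 ± 273 CPM with vehicle (SD, n = 3 each), with a log2 fold change of -1.28 ± 0.36 (95% interval -2.06 to -0.50, edgeR adjusted p = 0.0197). The fall was 1.38-fold in mouse 1, 4.69-fold in mouse 2 and 1.77-fold in mouse 3. Without mouse 2 the log2 fold change was -0.63 and the call was lost (edgeR adjusted p = 0.189), as it was without vehicle library 2 alone (-0.74, edgeR adjusted p = 0.0966). The same held without cisplatin library 2 or cisplatin library 3 (edgeR adjusted p = 0.0731 and 0.0698), and without mouse 3.

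Ppy, the PP cell hormone gene and the neighbour of Pyy on its chromosome, read 537, 210 and 159 CPM with cisplatin, against 575, 1073 and 366 CPM with vehicle. The cisplatin library of mouse 1 was above the vehicle library of mouse 3, so the groups overlapped. Ppy averaged 302 ± 205 CPM with cisplatin and 671 ± 363 CPM with vehicle (SD, n = 3 each), and its log2 fold change of -1.15 ± 0.46 did not pass the test (95% interval -2.13 to -0.17, edgeR adjusted p = 0.0810). Within mice the log2 ratio was -0.10, -2.35 and -1.21. With the mouse as a block, which the design pairs, Ppy passed the test at a log2 fold change of -1.21 (edgeR adjusted p = 0.0189).

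Sst, the delta cell hormone gene, read 2313, 1173 and 1247 CPM with cisplatin, against 2424, 3325 and 1302 CPM with vehicle. The groups overlapped, and in mouse 1 and mouse 3 the libraries of the pair were nearly level, with log2 ratios of -0.07 and -0.06, while in mouse 2 the ratio was -1.50. Sst averaged 1578 ± 638 CPM with cisplatin and 2350 ± 1013 CPM with vehicle (SD, n = 3 each), and its log2 fold change of -0.57 ± 0.38 did not pass the test (95% interval -1.39 to 0.24, edgeR adjusted p = 0.298). That interval takes in both no change and a fall larger than 2-fold, so these 3 pairs do not show that Sst was unchanged.

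Ghrl, the hormone gene of the rare epsilon cells, had few counts. Its Ghrl_77249 row held 37, 27 and 95 counts in the cisplatin libraries, against 7, 42 and 12 counts in the vehicle libraries. Scaled for depth these were 31.3, 25.7 and 102 CPM with cisplatin and 2.77, 26.5 and 4.72 CPM with vehicle. The vehicle library of mouse 2 was just above the lowest cisplatin library, so the groups overlapped. The row averaged 52.9 ± 42.5 CPM with cisplatin and 11.3 ± 13.2 CPM with vehicle (SD, n = 3 each), a log2 fold change of 2.28 ± 0.76 (95% interval 0.66 to 3.91, edgeR adjusted p = 0.0405). The row passed the filter on low counts only through its cisplatin libraries, so this fold change and p are no support for a rise.

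The mice differed. The depth-scaled ratio of cisplatin to vehicle was 11.3 in mouse 1 (exact 95% interval 4.99 to 30.2), 0.972 in mouse 2 (0.576 to 1.61) and 21.7 in mouse 3 (11.9 to 43.5), where the intervals cover counting error only. Without mouse 3 the log2 fold change was 0.99 (edgeR adjusted p = 0.535), and without cisplatin library 3, the library with the high mt-Nd6 share, it was 1.39 (edgeR adjusted p = 0.256). Without vehicle library 1 or vehicle library 3 it was 1.87 in both cases and also missed the threshold (edgeR adjusted p = 0.152 and 0.144), and without mouse 1 it was 2.11 (edgeR adjusted p = 0.0581). The second Ghrl row, Ghrl_65988, held 0, 4 and 2 counts with cisplatin and 0 counts in each vehicle library, and was not tested. The overlapping genes on the opposite strand cannot be separated from Ghrl without the probes' strand, which is not given in the sources used here.

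**Figure D2:**
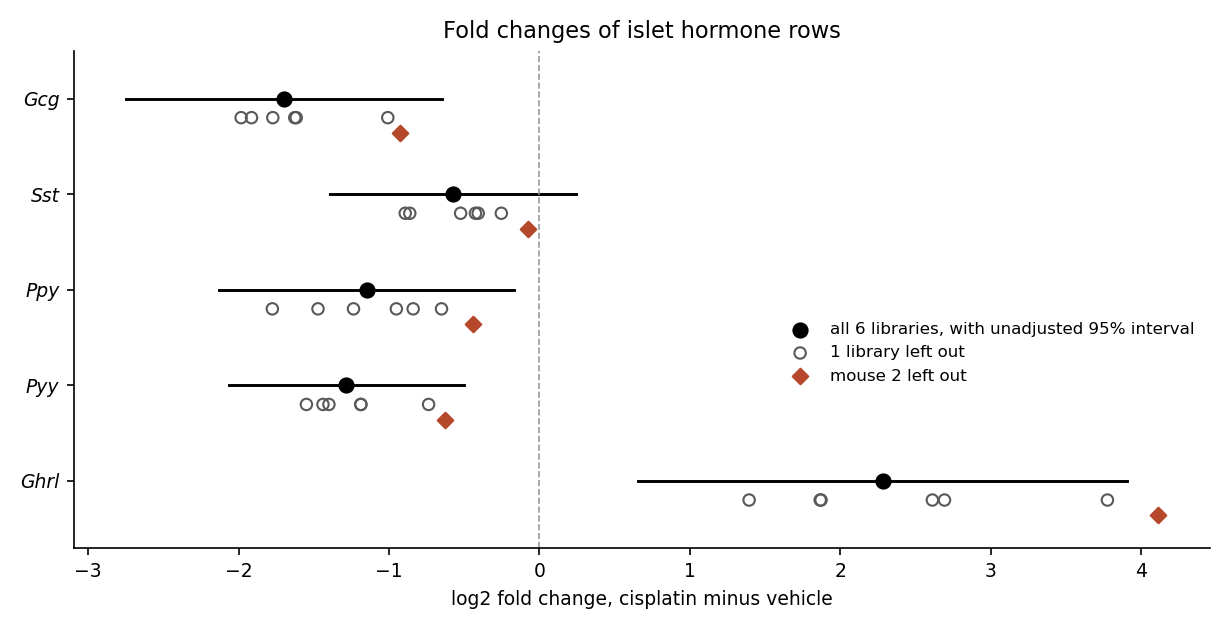
Log2 fold change of each tested hormone row, cisplatin over vehicle, with its unadjusted 95% interval (black), beside the values with 1 library left out (open circles) and with both libraries of mouse 2 left out (diamonds). Without mouse 2 Gcg sits at -0.92, Sst at -0.07, Ppy at -0.44 and Pyy at -0.63, each nearer to 0 than with all 6 libraries, while Ghrl sits at 4.11.

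As a share of all counts, the 5 genes made up 1.46%, 0.731% and 0.650% of the cisplatin libraries, against 2.67%, 6.00% and 2.14% of the vehicle libraries. Every vehicle library was above every cisplatin library, and the mean share was 0.947% ± 0.447 with cisplatin and 3.60% ± 2.09 with vehicle (SD, n = 3 each; two-sided exact permutation p = 0.1, the smallest that 3 against 3 allows). Gcg made up most of this, at 0.757% ± 0.324 with cisplatin and 3.20% ± 1.94 with vehicle. Such shares use no scaling between libraries and depend on what else was counted, including the mt-Nd6 share of cisplatin library 3.

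Ratios within a library compare the hormones with each other and do not depend on the scaling. The Gcg to Sst ratio of counts was 4.61, 6.63 and 6.28 with cisplatin, against 7.31, 15.2 and 13.2 with vehicle. It was lower in the cisplatin library of each mouse, with log2 changes of -0.67, -1.19 and -1.07, and the groups did not overlap. The mean change was -0.98, a 1.97-fold lower ratio, with a two-sided exact permutation p of 0.1, the smallest possible, and 0.2 after adjustment over the 10 ratios computed. Without vehicle library 2, the library high in Gcg and Sst alike, the change of this ratio was -0.77.

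The other ratios compared the remaining hormones and insulin. The Gcg to Pyy ratio was 42.0, 45.3 and 44.7 with cisplatin, against 50.5, 62.9 and 55.5 with vehicle, lower in each of the 3 mice (mean log2 change -0.35, exact permutation p = 0.1). The Sst to Ppy ratio was higher with cisplatin in each mouse, by 0.03, 0.85 and 1.14 on the log2 scale (mean 0.67, exact permutation p = 0.1), and the Sst to Pyy ratio by 0.40, 0.72 and 0.76 (mean 0.63, exact permutation p = 0.2). The Ppy to Pyy ratio changed by -0.04 (exact permutation p = 0.9) and the Gcg to Ppy ratio by -0.30 (exact permutation p = 0.7). Set against insulin, the sum of Ins1 and Ins2, Gcg changed by -1.59 on the log2 scale, with -1.30, -3.07 and -0.39 in the 3 mice (exact permutation p = 0.1). Against insulin Pyy changed by -1.24, with -1.04, -2.59 and -0.08 in the 3 mice, and Ppy by -1.28, with -0.67, -2.72 and -0.46 (exact permutation p = 0.1 and 0.2). Sst changed by -0.61 against insulin (exact permutation p = 0.5), but the mice went both ways, with -0.64, -1.87 and 0.68, and without cisplatin library 2 the change was -0.11. None of the 10 ratios could pass 0.05 in a design of this size.

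**Figure D3:**
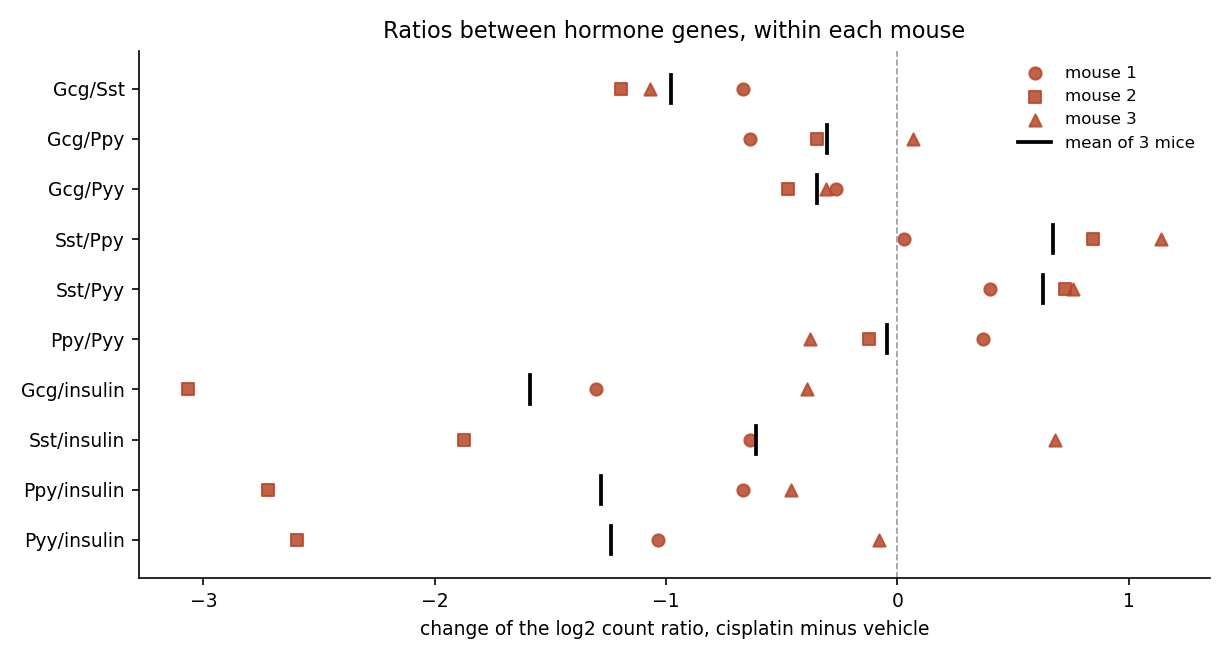
Change of the log2 ratio of counts between hormone genes, or between a hormone and insulin, cisplatin minus vehicle, with a symbol for each of the 3 mice and a bar at their mean. The 3 points of Gcg/Sst lie between -1.19 and -0.67 and those of Gcg/Pyy between -0.47 and -0.27, whereas those of Gcg/insulin spread over -3.07 to -0.39.

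The profile of each hormone over the 6 libraries was compared with 2925 rows of at least 50 CPM on average. The rows most like Gcg by Pearson's r of log2 CPM were Dennd4c (0.995), Surf4 (0.991) and Iapp (0.981), and those most like Pyy were Dennd4c (0.983), Surf4 (0.972) and Zfr (0.968). For Ppy they were Zfp788 (0.986), Ociad1 (0.985) and Tuba1b (0.983), and for Sst Phyh (0.968), Exosc10 (0.948) and Zfp788 (0.943). Ghrl was most like Asxl2 (0.994), Atp5g2 (0.992) and Metap1 (0.987). Dennd4c read 235, 167 and 176 CPM with cisplatin, against 393, 1044 and 440 CPM with vehicle, with the same high vehicle library of mouse 2. Between the members, r was 0.994 for Gcg with Pyy, 0.934 for Sst with Ppy, 0.916 for Ppy with Pyy, 0.875 for Gcg with Ppy and 0.771 for Gcg with Sst, while Ghrl gave -0.41 to -0.19 with the others. All of these r values are descriptions over 6 libraries that share 2 treatments and 3 mice.

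Markers of the cells that make these hormones did not move as one group. Of 16 alpha cell markers 6 were tested, 2 were lower and none was higher, with a median log2 fold change of -0.19. Over all rows tested, 13.9% were lower and 11.1% higher. Irx1, an alpha cell transcription factor gene, had 0 counts with cisplatin against 100 with vehicle. This is 15.8-fold lower if the cisplatin group is set to a floor of 3 counts in all, with the counting error of the vehicle counts left aside. Its row passed the filter on low counts only through its vehicle libraries, so its call is given as a description. Slc7a2, a cationic amino acid transporter, read 246, 257 and 444 CPM with cisplatin, against 1592, 1301 and 1601 CPM with vehicle (log2 fold change -2.25 ± 0.31, edgeR adjusted p = 0.000238), and here the vehicle library of mouse 2 was the lowest of its group. Ttr, the transthyretin gene, did not pass, with a log2 fold change of 0.04.

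For delta cells, 3 of 10 markers were tested and none was called. Rbp4, a retinol binding protein, had a log2 fold change of -1.53 ± 0.54 that missed the threshold (edgeR adjusted p = 0.0510) and passed with the mouse as a block (-1.58, edgeR adjusted p = 0.0223). The Rbp4 row passed the filter on low counts only through its vehicle libraries, so these values are given as a description. Hhex, the factor required for delta cells, had a log2 fold change of 0.11 ± 0.48, which turned negative with library totals alone and with no filter. For PP cells, 3 of 8 markers were tested. Meis2, a homeobox factor, fell by 1.22 on the log2 scale (edgeR adjusted p = 0.00695), and Tm4sf4, a membrane protein of the tetraspanin-like family, rose by 1.00 (edgeR adjusted p = 0.0261), a call that was lost with library totals alone and without cisplatin library 1, vehicle library 1 or vehicle library 3.

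Most of the tested genes that turn the precursors into hormones fell. Of the 15 genes for prohormone processing and amidation 11 were tested, 7 were lower and none was higher, with a median log2 fold change of -1.36. The shares over all rows tested were 13.9% lower and 11.1% higher. Pcsk2, the convertase that releases glucagon from proglucagon in alpha cells, read 476, 467 and 522 CPM with cisplatin, against 4700, 5906 and 5422 CPM with vehicle, a log2 fold change of -3.45 ± 0.32 (edgeR adjusted p = 3.29e-05). The groups were about 10.9-fold apart and each was tight. Bulk counts do not show in which cell type this fall lay. Scg5, the chaperone of this convertase, and the convertase genes Pcsk6 and Furin also fell, with log2 fold changes of -1.50, -2.69 and -1.57 (edgeR adjusted p = 0.00587, 0.00536 and 0.00383). The Pcsk6 row passed the filter on low counts only through its vehicle libraries, so its call is given as a description. Pam, the enzyme that amidates peptides such as pancreatic polypeptide and peptide YY, fell by 1.26 (edgeR adjusted p = 0.00639). Pcsk1, which yields the incretin GLP-1 from the same precursor, had a log2 fold change of -1.16 ± 0.51 and did not pass (edgeR adjusted p = 0.117). The Pcsk1 row, too, passed the filter on low counts only through its vehicle libraries. Cpe, the carboxypeptidase that trims the cut ends, fell by 0.86 (edgeR adjusted p = 0.0343), but in 5 of the 6 fits that left out 1 library it did not pass. Without mouse 2 or mouse 3, 4 and 3 genes of this list were called lower. Mboat4, which acylates ghrelin, had 0 counts in every library.

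**Figure D4:**
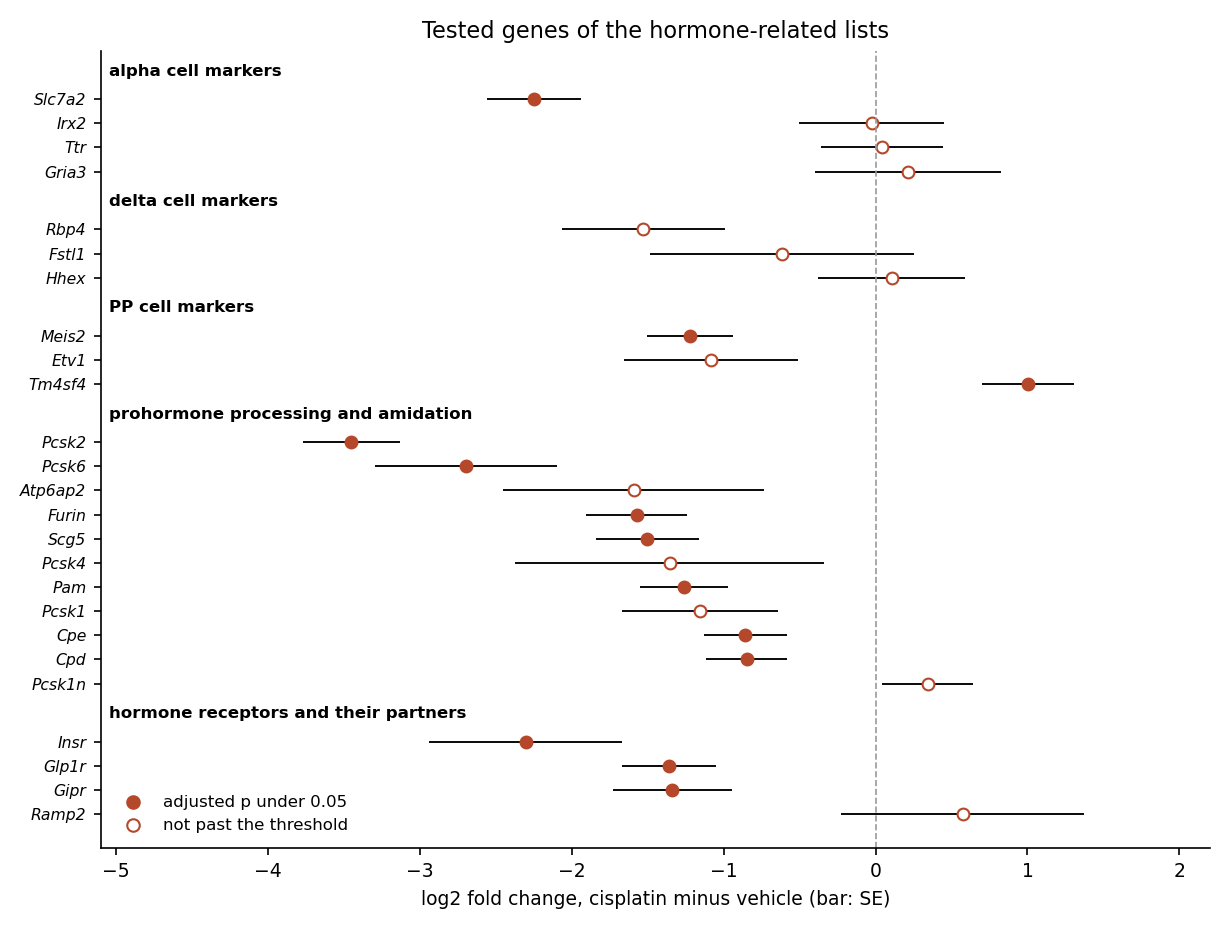
Log2 fold change (cisplatin over vehicle) with its standard error for tested genes among the alpha, delta and PP cell markers, the prohormone processing genes and the hormone receptors with their partners, filled where the adjusted p was under 0.05. Irx1, with 0 counts in the cisplatin libraries, is left out of the plot; Pcsk2, at -3.45, is the lowest of the processing genes.

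Of 17 genes for hormone receptors and their partners 4 were tested and 3 were lower, against 13.9% lower over all rows tested. The receptors of glucagon, somatostatin, pancreatic polypeptide, peptide YY and ghrelin were not tested, and most of them were near 0. Gcgr, the glucagon receptor, had 2 counts with cisplatin against 10 with vehicle, Sstr3 3 against 18, and Ghsr, the ghrelin receptor, 5 against 18. Npy4r, the receptor of pancreatic polypeptide, had 0 in both. Glp1r, the GLP-1 receptor, Gipr, the receptor of the gut hormone GIP, and Insr, the insulin receptor, fell with log2 fold changes of -1.36, -1.34 and -2.30 (edgeR adjusted p = 0.00619, 0.0230 and 0.0172). Without vehicle library 1 or vehicle library 3, 1 of these 3 calls was left. The Insr row passed the filter on low counts only through its vehicle libraries, so its call is given as a description.

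Of 20 islet lineage transcription factors 14 were tested, 7 were lower and none was higher, with a median log2 fold change of -0.93. Among all rows tested, 13.9% were lower and 11.1% higher. Leaving out cisplatin library 1, vehicle library 1 or vehicle library 3 left 4, 3 and 3 lower calls. Nkx2-2, needed for several islet endocrine fates, fell by 1.42 on the log2 scale (edgeR adjusted p = 0.00402). Pax6, which is required for alpha cells and binds the glucagon promoter, had a log2 fold change of -0.18 ± 0.35, and Neurod1 one of 0.90 ± 0.34 (edgeR adjusted p = 0.757 and 0.0644). Tshz1 had 3 counts with cisplatin against 68 with vehicle, a depth-scaled ratio of vehicle to cisplatin of 10.7 (exact 95% interval 3.52 to 53.4), and its call (edgeR adjusted p = 0.0352) was lost in 5 of the 6 fits that left out 1 library. Mafa and Nkx6-1, factors of mature beta cells, had log2 fold changes of -2.90 and -1.93 (edgeR adjusted p = 5.35e-05 and 0.000396). Of 12 dense-core granule proteins 11 were tested, 5 were lower and 1 higher: Ptprn2, a receptor-type phosphatase of the granule membrane, fell (log2 fold change -4.18, edgeR adjusted p = 0.000137), and Vgf, whose product is cut into secreted peptides, rose (2.57, edgeR adjusted p = 0.00069). Without cisplatin library 1, 3 granule genes were called lower. The rows of Tshz1 and Ptprn2 passed the filter on low counts only through their vehicle libraries, so these calls are given as a description.

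Other peptide hormones of the islet differed among themselves. Of 28 listed 9 were tested, 1 was lower and 2 were higher, with a median log2 fold change of 0.03. Beside 13.9% lower and 11.1% higher over all rows tested, counts this small do not set the list apart. Ucn3, the urocortin that beta cells release and that acts on delta cells, read 32.1, 16.2 and 8.58 CPM with cisplatin, against 106, 128 and 152 CPM with vehicle (log2 fold change -2.73, edgeR adjusted p = 0.000643). Its row passed the filter on low counts only through its vehicle libraries, so its call is given as a description. Pdyn, the opioid precursor prodynorphin, read 139, 117 and 124 CPM with cisplatin, against 30.8, 24.0 and 50.4 CPM with vehicle, and rose by 1.84 (edgeR adjusted p = 0.00204). Dbi, the diazepam-binding inhibitor, rose by 1.60 (edgeR adjusted p = 0.0196), a call lost with library totals alone (edgeR adjusted p = 0.0635) and without vehicle library 1 or vehicle library 3. Iapp, the amylin gene, averaged 18868 ± 1570 CPM with cisplatin and 43456 ± 17878 CPM with vehicle (SD, n = 3 each), had its highest level, 63594 CPM, in the vehicle library of mouse 2 as Gcg did, and did not pass (log2 fold change -1.20, edgeR adjusted p = 0.0636). Ins1 had a log2 fold change of -0.26 ± 0.50, and Ins2 one of 0.39 ± 0.49 that was -0.04 with library totals alone. Of 13 beta cell markers 11 were tested, 7 were lower and none was higher, with a median of -1.93; Trpm5, a cation channel, fell most, at -4.12 (edgeR adjusted p = 3.48e-05).

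Markers of other cells in an islet preparation were also counted, beside shares of 13.9% lower and 11.1% higher over all rows tested. For acinar cells 1 of 10 markers, Bhlha15, was tested and not called, with summed levels of 11.8 to 31.3 CPM with cisplatin and 5.68 to 16.1 CPM with vehicle, and Pnlip, Rbpjl and Cel had 0 counts in every library. For duct cells 3 of 7 were tested and none was called, Krt7 being the most abundant, although Spp1 (log2 fold change 0.93, edgeR adjusted p = 0.0593) passed with the mouse as a block (1.00, edgeR adjusted p = 0.0462); the duct sums were 1432 to 2524 CPM with cisplatin and 1293 to 1738 CPM with vehicle. For immune cells 7 of 10 were tested and 5 were lower, among them Cd74 (4 counts with cisplatin against 269 with vehicle), H2-Aa (9 against 278) and Csf1r (1 against 70, a call lost without any 1 of the vehicle libraries). Without vehicle library 1 or vehicle library 3 the immune count was 3 lower in each case. The immune markers had sums of 20.3 to 114 CPM with cisplatin and 188 to 351 CPM with vehicle, 2 ranges that do not overlap. Of all single rows tested, 24.3% also had groups that did not overlap, with cisplatin lower. The part of the immune markers in the hormone results was not tested. For endothelial cells 3 of 7 were tested, with Kdr and Eng lower (log2 fold changes -3.35 and -2.54, Eng not called without vehicle library 1 or vehicle library 3), Esam higher (1.19, a call lost with the mouse as a block and in 5 of the 6 fits that left out 1 library) and sums of 102 to 139 CPM with cisplatin and 75.8 to 116 CPM with vehicle. For stromal cells 6 of 9 were tested and 1 was lower, Rgs5 (4 counts with cisplatin against 235 with vehicle), with sums of 112 to 185 CPM with cisplatin and 101 to 388 CPM with vehicle. The 5 immune rows called lower, and those of Kdr, Eng and Rgs5, passed the filter on low counts only through their vehicle libraries. Their calls are therefore given as a description. None of the 5 neural and Schwann cell markers was tested, and their sums were 3.80 to 12.9 CPM with cisplatin and 1.58 to 4.42 CPM with vehicle.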

How the data were processed

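Islet lysates were measured with a TempO-Seq panel for the whole mouse transcriptome, per the labels' protocols. The authors deposited whole-number counts per probe for 6 libraries, not normalized. Tools listed without roles, per the submitters' processing notes, are DESeq2 1.44.0, STAR 2.7.10b and fastp 0.23.2, and the genome build is not given in the sources used here. From these counts, rows were filtered with edgeR's filterByExpr (minimum count 10) and scaled with TMM factors. They were tested in R 4.3.3 with edgeR 4.0.16 (quasi-likelihood, robust, treatment only) and Benjamini-Hochberg adjustment over 9381 rows at 0.05. Ratios and shares were tested with exact permutation tests in scipy 1.17.1, two-sided, after 0.5 was added to each sum of a ratio. Depth was 1116916 to 2272276 counts a library, and the spread among mice also limits precision.

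The libraries pair by mouse, since the labels give both treatments of a mouse the same biosample identifier. The deviations of the 2 libraries of mouse 1, 2 and 3 correlated at -0.116, 0.0336 and 0.219. Libraries of different mice gave -0.227 to 0.168, a range that holds the values of mouse 1 and mouse 2, so the counts show little of the pairing. The test was checked on simulated counts. Alternatives were RLE factors, library totals alone, no filter, DESeq2 1.42.0, limma-voom 3.58.1, the mouse block, summed probes, no mitochondrial or insulin rows, and each library left out. Leaving out each mouse, or the mt-Nd6 rows, was added after the data were seen. The members and lists were chosen with earlier results of these data known. From each list, up to 3 called genes with the largest change are named (the most abundant tested one where none was called), with others named whatever their values; Ttr, Pax6, Neurod1, Nkx2-2, Spp1 and the receptors with few counts were chosen after their values were seen. Some genes of the lists are counted but not reported here.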

Additional observations from a re-analysis of the deposited data

Results flagged for a closer look

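The second Ghrl row, Ghrl_65988, was too low to enter the test. It held 6 counts over the 3 cisplatin libraries (0, 4 and 2) and 0 over the 3 vehicle libraries. With the vehicle group set to a floor of 3 counts in all, it was 4.22-fold higher with cisplatin. That ratio leaves aside the counting error of the 6 counts. The row was flagged because it held counts only with cisplatin, so it was picked by the values described here. The 4 counts were in mouse 2, whose Ghrl_77249 row was level between treatments, and the difference was not tested.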

How the results depend on the processing

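Calls of the 5 hormone rows were limited by 3 pairs of libraries. Ppy passed with library totals alone (-1.45), no filter (-1.24), DESeq2 (-1.13), limma-voom (-1.19) and the mouse as a replicate block (-1.21), and Ghrl did not pass with library totals alone (1.75). The block called 2197 rows in all and changed no other call of a hormone row: Gcg -1.51, Sst -0.54, Pyy -1.16 and Ghrl 2.60. Library totals alone moved the median of all rows to -0.54, and called 459 rows higher and 2023 lower. Leaving out 1 library gave log2 fold changes of -1.98 to -1.01 for Gcg, -0.89 to -0.25 for Sst, -1.78 to -0.65 for Ppy, -1.55 to -0.74 for Pyy and 1.39 to 3.77 for Ghrl. Gcg and Pyy each missed the threshold without cisplatin library 2 (edgeR adjusted p = 0.0627 and 0.0731) or cisplatin library 3 (0.0632 and 0.0698) as well as without vehicle library 2, and Ppy passed without cisplatin library 1 (0.00729) or vehicle library 3 (0.0422). The counts of rows called were then 1085 to 2538 in all, 504 to 1244 higher and 581 to 1294 lower, lowest without vehicle library 1. The Gcg to Ppy ratio ranged over -0.59 to 0.06 and the Ppy to Pyy ratio over -0.38 to 0.23, so both reversed. Without mouse 1, 2 or 3, an alternative chosen after seeing the data, Gcg missed the threshold each time (-2.08, -0.92 and -1.89), as did Pyy without mouse 2 (-0.63) or 3 (-1.45) and Ghrl without mouse 1 (2.11) or 3 (0.99), while Ppy passed without mouse 1 (-1.93); Sst without mouse 2 was -0.07. Rows called were then 1350, 1511 and 1021, of which 593, 656 and 424 were higher and 757, 855 and 597 lower. The causes were not tested. Depth limits the Ghrl_77249 row, with 7 to 95 counts a library.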
